A study of Mus musculus with 6 samples.

Results

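The genes described here encode peptide hormones of enteroendocrine cells, the hormone-secreting cells of the gut lining, and a granule protein used as their general marker. They were the 10 rows of the deposited table whose identifier was Gcg, Gip, Sct, Cck, Pyy, Nts, Tac1, Sst, Ghrl or Chga, out of 21397 genes in all. All 10 are listed with NCBI gene numbers that matched RefSeq. Their RNA was measured in small intestinal organoids grown from crypts of Fpr2f/f mice, in which Fpr2 carries loxP sites and for which no Cre is stated. Control organoids were kept for 5 days with 0.1% DMSO, the vehicle. Treated organoids were kept for 5 days with 0.1% DMSO and 1 μM MMK-1, a synthetic peptide that activates the receptor FPR2. Both groups carried the same Fpr2f/f alleles. The labels call the organoids small intestinal, as do the paper's methods, while a passage of its results calls them ileal. As a dose, the treatment field of the MMK-1 samples gives 1 mM, while the protocol text and the methods give 1 μM, and the mice were 8 to 12 weeks old by the general methods. There were 3 libraries per group and 6 in all, and the study states that each sample pooled organoids of 3 mice. The general statistics section speaks of independent experiments, but neither it nor the labels say whether these libraries came from separate cultures, so p-values measure only the spread between these libraries, which may be technical.

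Enteroendocrine cells are scattered singly among the other cells of the epithelium, and each makes a limited set of hormones that depends on its subtype, its place along the gut and its position between crypt and villus. They arise from crypt progenitors that switch on Neurog3, store their peptides in dense-core granules and release them when nutrients reach the lumen. The peptides act on the pancreas, stomach, gallbladder, enteric nerves and brain, and also on neighbouring epithelial cells. In RNA from whole organoids, fewer cells of a type and less RNA per cell cannot be told apart.

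The deposited values were fragments per kilobase of gene, scaled to the depth of the library (FPKM), which can be compared between genes because they are divided by gene length. Whole numbers of fragments were recovered from the steps of these values, and the library totals were 35512739 to 37537463 fragments. Differences were tested by limma-trend fitted to log2(FPKM + 1) for 10551 genes, those whose mean FPKM reached 1. Fold changes on that scale understate the change of genes with few fragments. MMK-1 replicate 3 stood apart from the other MMK-1 libraries, with a chi-square per degree of freedom of 29.4 and 34.4 against them, where the other pairs of one group gave 2.78 to 4.78. Without it, 8 of the 10 genes were higher with MMK-1, the same number as with it. Over all genes tested the median log2 fold change stood at 0.13. Relative to that median, Gip and Chga stood at -0.08 and the other 8 genes at 0.21 (Sct) to 1.57 (Nts).

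All 10 genes passed the filter, and 8 of them were higher with MMK-1 at the threshold of 0.05 for the limma p adjusted by Benjamini-Hochberg over all genes tested, while 0 were lower. In the same test 48.5% of all genes tested were higher and 24.7% were lower, so a call in either direction was common in these libraries, at 73.2%. The 8 were Nts, Cck, Ghrl, Tac1, Gcg, Pyy, Sst and Sct, and the genes that did not pass were Gip and Chga. The median log2 fold change was 0.52 over the 10 genes. At a fold change of at least 2, which 3.39% of all genes tested passed in the higher direction, only Nts passed in the main test, and none of the 10 fell by that much, as 3.65% of all genes did. Control and MMK-1 values were fully separate in 8 of the 10 genes, all with MMK-1 higher, where 76.8% of all genes tested had groups that did not overlap and 50.5% had them with MMK-1 higher.

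**Figure D1:**
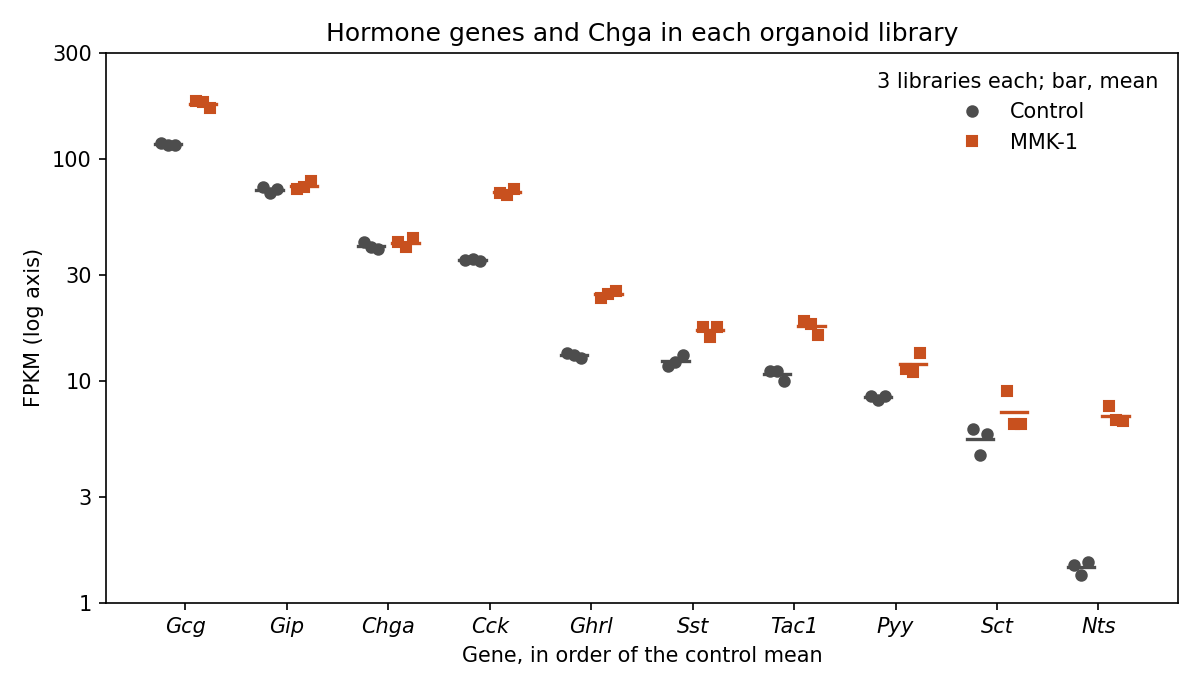
FPKM of each gene (log axis) in the 3 control libraries (circles) and the 3 MMK-1 libraries (squares), with bars at the group means and genes in the order of the control mean. The groups overlap for Gip and Chga and are separate for the other genes, and the gap is widest for Nts, which lay at 1.33 to 1.53 in controls and 6.57 to 7.68 with MMK-1.

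The genes spanned a wide range of levels in controls. Gcg was the most abundant by FPKM and stood above 94.6% of all genes tested, while Nts was the least abundant and stood above 7.16% of them. The order of the control means was Gcg, Gip, Chga, Cck, Ghrl, Sst, Tac1, Pyy, Sct and Nts. Of these neighbours, only Ghrl and Sst had ranges that overlapped. With MMK-1 the order of mean FPKM was Gcg, Gip, Cck, Chga, Ghrl, Tac1, Sst, Pyy, Sct and Nts. Cck thus stood above Chga and Tac1 above Sst, and the ranges of Gip and Cck, of Tac1 and Sst, and of Sct and Nts overlapped.

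Gcg, Gip and Sct encode peptides of the glucagon and secretin family. Gcg (NCBI gene 14526, chr2:62474530-62483653 of GRCm38.p6) encodes proglucagon, from which L cells of the gut make glucagon-like peptides 1 and 2. Its FPKM was 118, 116 and 116 in the control libraries and 182, 180 and 169 with MMK-1. The groups did not overlap and each was narrow, with means of 117 ± 1.13 (SD, n = 3) and 177 ± 6.91 (SD, n = 3). The log2 fold change was 0.59 (standard error, SE, 0.0408, limma adjusted p = 2.7e-06). The exact two-sided permutation p was 0.1, the smallest that 3 libraries against 3 allow, so no gene can pass 0.05 by that test alone. At 4734 to 7063 fragments per library, counting error was at most 1.45%.

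Gip (NCBI gene 14607, chr11:96024532-96030831) encodes glucose-dependent insulinotropic polypeptide, the incretin of K cells. Its FPKM was 74.8, 70.3 and 72.9 in controls and 72.8, 74.5 and 79.2 with MMK-1, from 1949 to 2217 fragments per library. The groups overlapped. The log2 fold change was 0.05 (95% interval -0.05 to 0.16, limma adjusted p = 0.31). The interval leaves out a change of the size of that of Gcg, and Gip stood at -0.08 relative to the median of all genes tested. After scaling the libraries by the trimmed mean of M values (TMM), which moved the median of all genes to -0.0107, the log2 fold change of Gip was -0.11 (limma adjusted p = 0.029), so its direction depended on the scaling.

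Sct (NCBI gene 20287, chr7:141278329-141279174) encodes secretin, which drives bicarbonate secretion by the pancreas. Its FPKM was 6.03, 4.62 and 5.76 in controls and 8.98, 6.39 and 6.41 with MMK-1. MMK-1 replicate 1 was the highest library, and the lowest MMK-1 library was just above the highest control library. This gave a log2 fold change of 0.34 (SE 0.127, 95% interval 0.05 to 0.63, limma adjusted p = 0.036), the least certain of the 8 called genes. It rested on 99 to 182 fragments per library, a counting error of up to 10.1%. The call was lost without MMK-1 replicate 1 (log2 fold change 0.20, limma adjusted p = 0.094), without control replicate 2 (0.25, limma adjusted p = 0.13) and without control replicate 3 (0.38, limma adjusted p = 0.056). It was also lost under both other scalings between libraries, with limma adjusted p of 0.12 and 0.21.

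Cck (NCBI gene 12424, chr9:121489824-121495694) encodes cholecystokinin, the peptide of I cells that contracts the gallbladder, stimulates pancreatic enzyme secretion and signals satiety through vagal nerves. Its FPKM was 34.9, 35.4 and 34.8 in controls and 70.0, 68.7 and 73.3 with MMK-1. Each MMK-1 library was close to a doubling of each control library, with means of 35.0 ± 0.301 (SD, n = 3) and 70.7 ± 2.38 (SD, n = 3) and a ratio of 2.02. On the log2(FPKM + 1) scale the change was 0.99 (SE 0.0401, limma adjusted p = 1.2e-07), just under the fold threshold. The call of Cck at a fold of 2 therefore depended on the scale: it passed with a pseudocount of 0.1 or 0.5, on the TPM scale, by limma-voom on the fragments and without MMK-1 replicate 2. The non-coding gene Gm38661 overlaps Cck, and whether reads were counted by strand is not given in the sources used here, so reads of the pair may not be told apart. Gm38661 held 0 fragments in 5 libraries and 1 in MMK-1 replicate 2.

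Nts (NCBI gene 67405, chr10:102481756-102490418) encodes neurotensin, which slows gastric emptying, promotes fat absorption and has trophic effects on the gut lining. Its FPKM was 1.48, 1.33 and 1.53 in controls and 7.68, 6.64 and 6.57 with MMK-1. By ratio this was the widest separation among the 10 genes, and the lowest MMK-1 library lay far above the highest control library. The change was 1.70 on the log2 scale (SE 0.0685, limma adjusted p = 1.2e-07), above that of 99.5% of all genes tested, and the plain ratio of mean FPKM was 4.82. By limma-voom on the fragments, which adds far less to each value, the log2 fold change was 2.26. The controls held 63 to 72 fragments per library, a counting error of up to 12.6%, and the MMK-1 libraries 301 to 344. Nts moved from above 7.16% to above 38.7% of all genes tested in level, so that with MMK-1 it reached the range of Sct.

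Pyy (NCBI gene 217212, chr11:102106676-102107832) encodes peptide YY, the companion of the glucagon-like peptides in L cells, which slows transit and reduces appetite. Its FPKM was 8.57, 8.22 and 8.54 in controls and 11.3, 10.9 and 13.3 with MMK-1. The control libraries were close together, and MMK-1 replicate 3 was the highest. The log2 fold change was 0.44 (SE 0.0708, limma adjusted p = 4.9e-04), against 0.59 for Gcg. The difference between these genes was not tested.

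Tac1 (NCBI gene 21333, chr6:7555061-7562978) encodes the precursor of substance P and neurokinin A and is transcribed in many serotonin-making enterochromaffin cells. Its FPKM was 11.1, 11.1 and 9.95 in controls and 18.6, 18.1 and 16.0 with MMK-1, and replicate 3 was the lowest in both groups. This was a log2 fold change of 0.66 (SE 0.0656, limma adjusted p = 2.4e-05). Tph1, which makes the rate-limiting enzyme of serotonin synthesis in the same cells, had a log2 fold change of 0.11 (limma adjusted p = 0.17), with 312 to 371 fragments in the control libraries and 339 to 383 with MMK-1.

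Sst (NCBI gene 20604, chr16:23889573-23891342) encodes somatostatin, by which D cells inhibit the release of other gut hormones. Its FPKM was 11.7, 12.1 and 13.0 in controls and 17.5, 15.7 and 17.5 with MMK-1. The lowest MMK-1 library was above the highest control. Its log2 fold change was 0.43 (SE 0.0594, limma adjusted p = 1.8e-04).

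Ghrl (NCBI gene 58991, chr6:113716119-113719911) encodes ghrelin, the appetite-stimulating peptide best known from the stomach and also made in the small intestine. Its FPKM was 13.4, 13.0 and 12.7 in controls and 23.7, 24.7 and 25.4 with MMK-1. Both groups were narrow and far apart, with means of 13.0 ± 0.366 (SD, n = 3) and 24.6 ± 0.856 (SD, n = 3). Its log2 fold change was 0.87 (SE 0.0450, limma adjusted p = 5.1e-07), the third largest after Nts and Cck. Of 5 stomach markers, Gkn2 and Muc5ac had 0 fragments in all 6 libraries, which allows up to 3 fragments each, and Gkn1 had 1 fragment in a single control library. Pgc held 0 to 1 fragments in controls and 0 to 6 with MMK-1. Tff1 held 4 to 26 fragments in controls, an FPKM of 0.22 to 1.43, and 0 to 6 with MMK-1. Mboat4, whose product attaches the fatty acid that ghrelin needs to bind its receptor, had 1 to 15 fragments in control libraries and 4 to 21 with MMK-1, which is under the filter of the main test.

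Chga (NCBI gene 12652, chr12:102554941-102565027) encodes chromogranin A, a granule protein used as a general marker of enteroendocrine cells. Its FPKM was 42.1, 40.2 and 39.2 in controls and 42.0, 39.9 and 44.0 with MMK-1, and the groups overlapped. The log2 fold change was 0.05 (95% interval -0.06 to 0.16, limma adjusted p = 0.38), at 2737 to 3124 fragments per library. As for Gip, the sign turned with the scaling, and under TMM the value was -0.11 (limma adjusted p = 0.04). The direction of the other 8 genes was the same in the main fit and in all 15 alternative fits, with log2 fold changes of 0.83 to 1.03 for Cck and 0.71 to 0.92 for Ghrl. Under TMM scaling the log2 fold change of Pyy was 0.29 in place of 0.44 and that of Sst 0.28 in place of 0.43, and both passed the test (limma adjusted p = 0.0044 and 0.003).

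**Figure D2:**
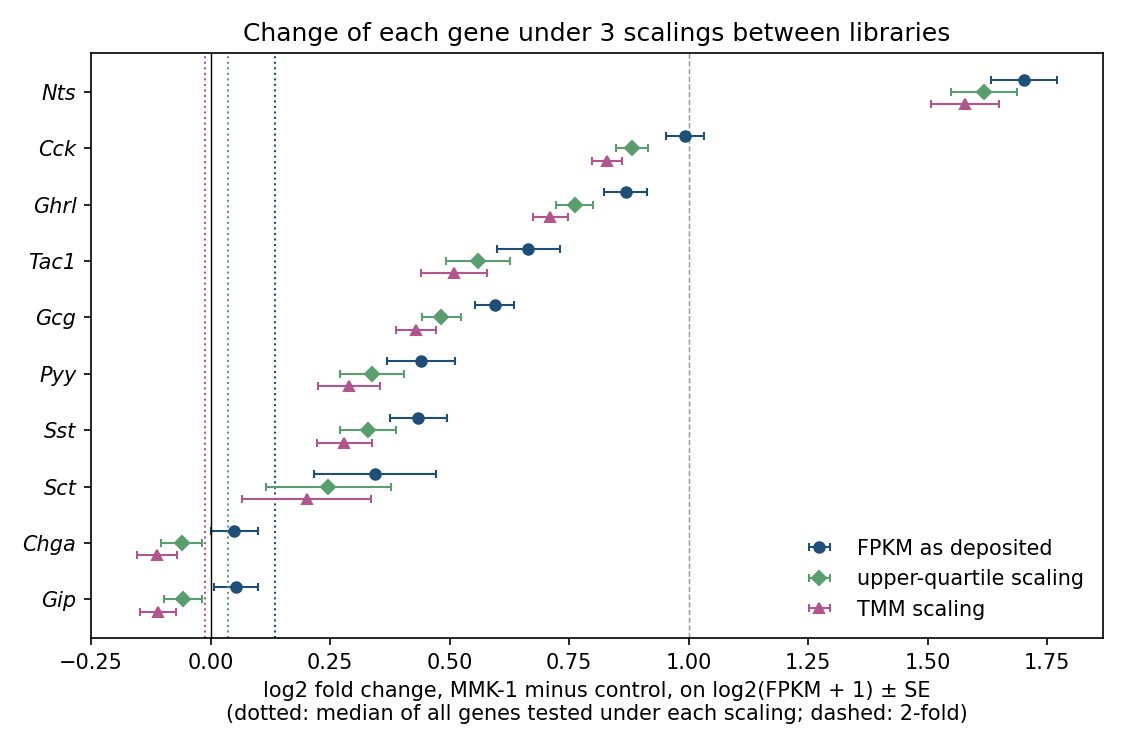
Log2 fold change of each gene, MMK-1 minus control on log2(FPKM + 1), with bars of 1 standard error, for the deposited FPKM (circles), upper-quartile scaling (diamonds) and TMM scaling (triangles). Dotted lines mark the median of all genes tested under each scaling and the dashed line a fold change of 2. Nts stands apart at 1.70 on the deposited scale, Cck reaches 0.99, and Gip and Chga lie on either side of 0 depending on the scaling.

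The promoter sequences of the genes with the largest changes, Nts and Cck, are shown with those of Gip and Chga, the genes that did not pass the test. The sequences are the 250 bases before the RefSeq transcription start in GRCm38.p6, on the strand of the gene. For Gip and Sst that start lies inside the span given for the gene above. Capitals mark the letters TGANTCA, a loose form of the AP-1 site of Fos and Jun proteins that takes any base at N. They also mark the cAMP response element (CRE) TGACGTCA or its core TGACG, and all were searched on both strands. A core on the other strand reads CGTCA, and a whole CRE also counts as a core.
Nts, chr10:102490419-102490668, minus strand: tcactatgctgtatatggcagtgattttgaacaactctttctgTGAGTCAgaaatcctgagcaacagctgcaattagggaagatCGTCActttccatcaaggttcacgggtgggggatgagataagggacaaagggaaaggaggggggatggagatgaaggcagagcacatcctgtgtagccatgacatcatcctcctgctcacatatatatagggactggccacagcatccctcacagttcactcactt
Cck, chr9:121495695-121495944, minus strand: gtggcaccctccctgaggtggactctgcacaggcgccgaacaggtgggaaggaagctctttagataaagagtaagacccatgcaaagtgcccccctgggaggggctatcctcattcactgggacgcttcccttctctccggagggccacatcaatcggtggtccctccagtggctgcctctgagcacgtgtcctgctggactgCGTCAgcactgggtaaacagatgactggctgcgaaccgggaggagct
Gip, chr11:96024295-96024544, plus strand: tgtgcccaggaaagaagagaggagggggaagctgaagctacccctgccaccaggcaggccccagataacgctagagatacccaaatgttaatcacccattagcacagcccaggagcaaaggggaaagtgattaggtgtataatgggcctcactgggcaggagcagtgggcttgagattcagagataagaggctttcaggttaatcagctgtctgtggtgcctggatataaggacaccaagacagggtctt
Chga, chr12:102554691-102554940, plus strand: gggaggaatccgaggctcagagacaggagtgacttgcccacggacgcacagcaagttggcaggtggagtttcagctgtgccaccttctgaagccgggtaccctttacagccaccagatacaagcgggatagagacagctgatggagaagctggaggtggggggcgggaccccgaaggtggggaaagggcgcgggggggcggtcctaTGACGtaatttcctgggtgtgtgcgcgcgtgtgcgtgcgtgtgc
Nts held an AP-1 match that began 207 bases before the start and a CRE core that began 166 bases before it. Cck and Chga each held 1 CRE core near the start, at 47 and 44 bases before it, and Gip held none of these letters. Among all 32851 promoter windows of this length, 6.75% held the AP-1 letters, 17.8% the CRE core TGACG and 1.55% the whole CRE. Of the other members, Sst held the whole CRE at 48 bases before the start, Tac1 held 2 cores, 1 of the 4 start sites of Ghrl held an AP-1 match, and Gcg, Sct and Pyy held none. A core thus occurred in 4 of the 8 genes that passed the test, Nts, Cck, Tac1 and Sst, and in Chga but not Gip, which did not pass, and a match of letters is no measure of binding.

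The summed FPKM of the 9 hormone genes, leaving out Chga, was 280, 272 and 275 in the control libraries and 413, 405 and 407 with MMK-1. The groups did not overlap, as was so for 76.8% of all genes tested, and the ratio of the means was 1.48. This ratio is on the deposited scale and was not taken under the other scalings. The hormone genes held 0.0258% of all fragments in controls and 0.0389% with MMK-1. Gcg and Gip together dominate this sum, so it was also taken without each. Without Gcg the ratio was 1.45 and without Gip it was 1.64.

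The mix of hormone transcripts was compared by the share of each gene in this sum. Gip made up 26.7%, 25.8% and 26.5% of the summed hormone FPKM in controls and 17.6%, 18.4% and 19.45% with MMK-1, a difference of -7.85 percentage points, or -13.1 when Gcg was left out of the sum. Its share was lower in every MMK-1 library than in every control library, while its own FPKM overlapped. Cck made up 12.7% ± 0.275 (SD, n = 3) in controls and 17.3% ± 0.611 (SD, n = 3) with MMK-1. The share of Ghrl was 4.72% ± 0.0973 in controls and 6.03% ± 0.258 with MMK-1, and that of Nts 0.524% ± 0.0332 and 1.70% ± 0.135 (SD, n = 3 each). These 4 of the 9 shares did not overlap between the groups. Of all genes tested, 76.8% did not overlap by FPKM, and no such figure was taken for shares of a sum. Each of the 4 had an exact two-sided permutation p of 0.1, the smallest possible, so no share could pass 0.05. Without Gcg in the sum the differences were 8.52 points for Cck, 2.45 for Ghrl and 2.10 for Nts, against 4.61, 1.30 and 1.18 with it, and by fragments in place of FPKM that of Ghrl was 0.723. The share of Gcg stayed the largest, at 42.4% ± 0.307 and 43.3% ± 1.54 (SD, n = 3 each), and the shares of Gcg, Sct, Pyy, Tac1 and Sst overlapped between the groups. A share within a library does not depend on the scaling between libraries, and the shares of one library sum to the whole, so a rise in some lowers the others.

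**Figure D3:**
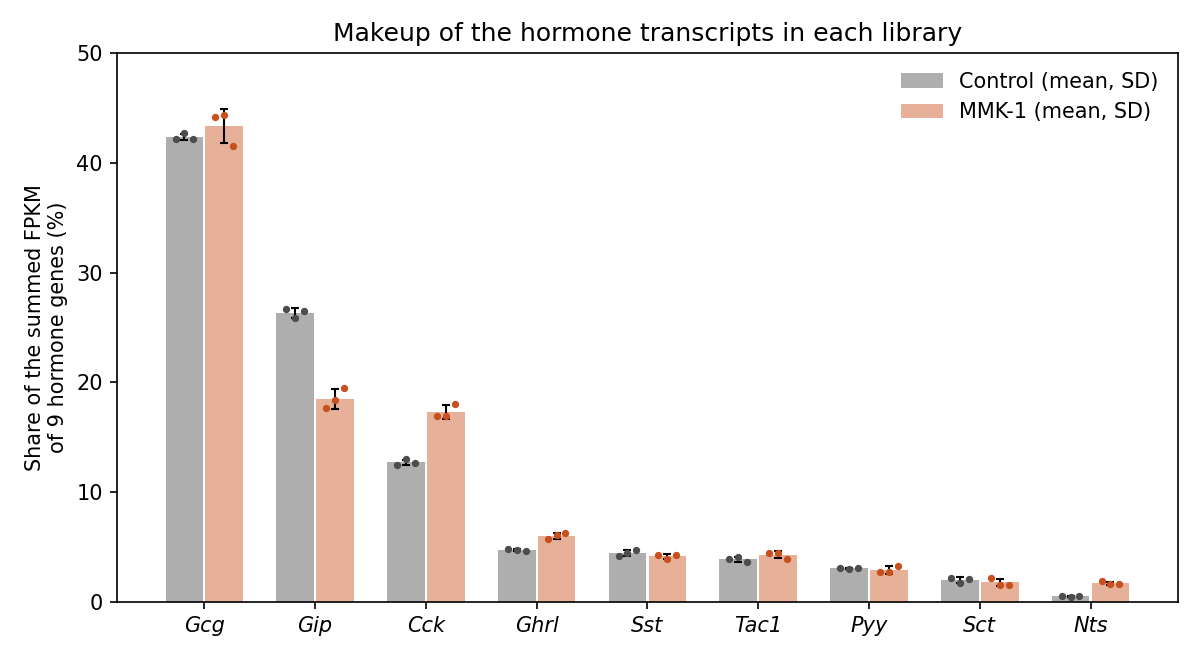
Share of each hormone gene in the summed FPKM of the 9 hormone genes, in percent, with bars at the group means, error bars of 1 SD and points for the 3 libraries of each group. The share of Gip is lower and those of Cck, Ghrl and Nts are higher in every MMK-1 library, while Gcg holds the largest share in both groups.

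Each hormone was also set against Chga within the same library, as a log2 ratio on the log2(FPKM + 1) scale. Cck moved from below Chga, at -0.20, to above it, at 0.74, a difference of 0.94. The difference was 1.65 for Nts, 0.82 for Ghrl, 0.61 for Tac1, 0.55 for Gcg, 0.39 for Pyy and 0.38 for Sst. For these 7 genes the groups did not overlap (exact permutation p = 0.1 each, the smallest possible), all with MMK-1 higher. Taken relative to Chga in the same way, 71.5% of all genes tested had groups that did not overlap, and 42.7% had them with MMK-1 higher. Sct gave 0.29 with overlapping groups (exact permutation p = 0.2), and 0.15 without MMK-1 replicate 1. The ratio of Gip to Chga was 0.83 in both groups (exact permutation p = 0.9). When the mean of Chga and Chgb took the place of Chga, the difference for Gip was -0.11, with groups that did not overlap, and that for Sct was 0.18.

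Of 27 genes for peptide processing and granules, 12 were tested, 8 were higher and 2 were lower at the same threshold, with a median log2 fold change of 0.24. Scg2, which encodes secretogranin II, rose by 0.67 on the log2 scale (limma adjusted p = 1.2e-05). Pcsk1, the convertase that cuts proglucagon to glucagon-like peptides, had 372 to 405 fragments in controls and 627 to 703 with MMK-1 and rose by 0.61 on the log2 scale (limma adjusted p = 3.9e-05). Rab3d, a small GTPase of secretory granules, rose by 0.45. Chgb, which encodes chromogranin B, had an FPKM of 106 ± 5.49 in controls and 129 ± 7.04 with MMK-1 (SD, n = 3 each), a log2 fold change of 0.28 (limma adjusted p = 0.0016) that did not pass under TMM scaling (0.11, limma adjusted p = 0.059). The lower genes were Pam, which amidates peptides such as cholecystokinin, secretin and peptide YY, with -0.21, and Slc18a1, a vesicular monoamine transporter, with -0.25. Pcsk2, the convertase that makes glucagon in the pancreas, had 0 fragments in all 6 libraries, which allows up to 3 in each. Scg3 and Scgn, among the 8, had control mean FPKM of 0.964 and 0.992 and passed the filter only through their MMK-1 level. The count of this list depended on the scaling, with 5 higher and 2 lower under upper-quartile scaling and 3 higher and 3 lower under TMM. Under those scalings 38.8% and 34% of all genes tested were higher and 33.1% and 37.7% lower, against 48.5% and 24.7% on the deposited scale.

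Of 24 enteroendocrine transcription factors, 9 were tested and all 9 were higher in the limma test under the deposited scale and under both other scalings, with a median log2 fold change of 0.77. Among all genes 48.5% were higher on the deposited scale. By limma-voom on the fragments, which takes in genes with fewer fragments, 23 were tested. Of these, 15 were higher and 1 was lower, where 39.1% of all genes tested were higher and 20.5% lower. Neurog3, which commits progenitors to the endocrine lineage, had an FPKM of 2.05 ± 0.204 in controls and 4.18 ± 0.430 with MMK-1 (SD, n = 3 each), a log2 fold change of 0.77 (limma adjusted p = 3.1e-05). Neurod1, a target of Neurog3, rose by 0.86 and Foxa2 by 1.01 on the log2 scale. Sox4, which acts early in this lineage and is also expressed in crypt progenitors, had the largest change among the 9 that passed the filter, at 1.58. Foxa2 passed the filter only through its MMK-1 level, with a control mean FPKM of 0.999, so its place among the 9 follows in part from the filter. Isl1 was under the filter, with 49 to 75 fragments in controls and 67 to 79 with MMK-1. Hhex, also under the filter, held 8 to 18 fragments in controls and 1 to 7 with MMK-1.

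Peptide hormones are cut by peptidases, many of them on the brush border of enterocytes. Of 8 such genes, all were tested, 5 were lower and 1 was higher in the limma test, with a median log2 fold change of -1.50, where 24.7% of all genes tested were lower and 48.5% higher. Dpp4, whose product removes the first residues of glucagon-like peptide 1, glucose-dependent insulinotropic polypeptide and peptide YY, had an FPKM of 88.9 ± 1.13 in controls and 27.2 ± 0.139 with MMK-1 (SD, n = 3 each). This was a log2 fold change of -1.67 (limma adjusted p = 4.2e-09). Mme, the gene of neprilysin, gave -1.65, Enpep -1.36 and Anpep -2.84, and the FPKM of Ace was 8.50-fold lower with MMK-1. Prcp was the higher gene, at 0.40, and Ece1 and Dpp7 did not pass, at -0.06 and 0.03, though both were lower under TMM scaling, which gave 7 lower genes and called 37.7% of all genes tested lower. Dpp4, Anpep, Ace and Enpep are also enterocyte genes, and MMK-1 libraries were also lower in 8 of 10 enterocyte markers.

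Of 19 nutrient sensor genes, 4 were tested. Ffar4, a receptor for long-chain fatty acids, went from 49, 49 and 80 fragments in the control libraries to 144, 173 and 194 in those with MMK-1, a log2 fold change of 1.04 (limma adjusted p = 5.5e-05). The transporters Slc15a1 and Slc5a1, which enterocytes also carry, were lower, at -3.44 and -0.44, and Lpar5 did not pass, at 0.03, though it was lower under TMM scaling (-0.12, limma adjusted p = 0.047). Of 4 other gut peptide genes that were tested, Guca2a and Guca2b, which encode guanylin and uroguanylin, were lower, at -1.11 and -1.09, and Adm and Nucb2 were higher, at 1.11 and 0.31, though Nucb2 did not pass under TMM scaling. Ucn3, listed below the filter, showed fragments of 25, 12 and 29 in the control libraries and 63, 60 and 89 in those with MMK-1. Of 23 receptor genes for the hormones described here, Sort1, which also sorts proteins within cells, was the 1 gene that passed the filter and rose by 0.61. The other receptor genes listed in the table had an FPKM of at most 0.515 in any library, and Glp1r had 1 fragment in all 6 libraries together.

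**Figure D4:**
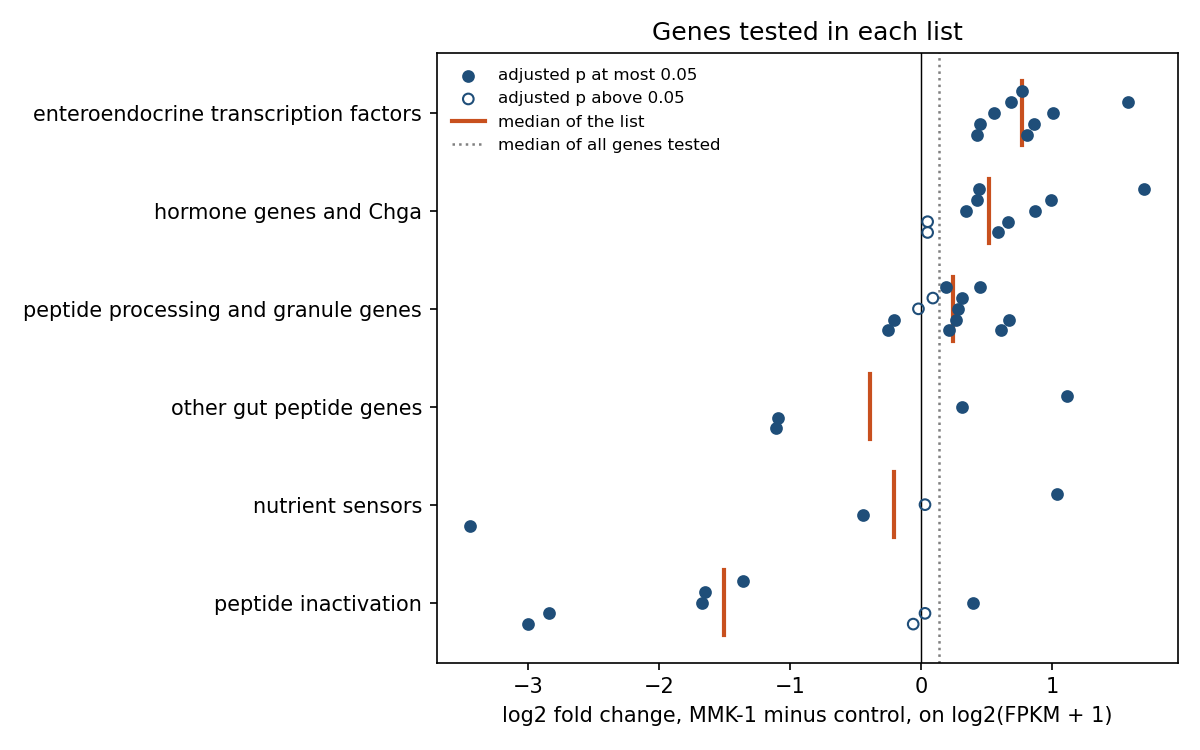
Log2 fold change (MMK-1 minus control, on log2(FPKM + 1)) of every tested gene in each list, filled where the limma adjusted p was at most 0.05, with a bar at the median of the list and a dotted line at the median of all genes tested, 0.13. The transcription factors all lie above 0 and have a median of 0.77, the hormone genes with Chga have a median of 0.52, and the peptidases have a median of -1.50.

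Marker lists of the other epithelial cells differed in direction, and their counts stand beside 48.5% of all genes tested higher and 24.7% lower, or 34% and 37.7% under TMM scaling. The 14 tested genes of an enteroendocrine list, which includes the 10 described here, gave 11 higher and 0 lower in the limma test, and 9 higher and 2 lower under TMM scaling. Of 10 enterocyte markers, 8 were lower and Fabp1 was higher, at 0.17, a call lost under both other scalings, and their summed FPKM was 13553 to 13747 in controls and 10007 to 10794 with MMK-1. All 6 stem cell markers were higher, with a summed FPKM of 56.7 to 57.5 in controls and 323.6 to 337.3 with MMK-1. All 6 Paneth cell markers tested were higher as well, and of 8 goblet cell markers 6 were higher and Muc2 and Zg16 were lower, at -0.35 and -1.63, with 3 higher and 2 lower under TMM scaling. The part of these shifts in the hormone gene differences was not tested. The immune markers Cd68 and Itgam were lower, at -0.96 and -0.79, Itgam having passed the filter only through its control level, while the defining gene Ptprc had a mean FPKM of 0.00757 in controls and 0.00311 with MMK-1. No tuft cell marker passed the filter, and their summed FPKM was 1.56 to 1.89 in controls and 1.96 to 2.39 with MMK-1. Pancreatic islet markers summed to 0.306 to 1.05 in controls and 1.13 to 1.24 with MMK-1, nearly all of it Iapp. Fibroblast markers summed to at most 0.147 FPKM in any library. Of the enteric neuron and glia list only Ret passed the filter, with a log2 fold change of -0.76, and its other genes had an FPKM of at most 0.368 in any library. Enteric nerve cells can also transcribe Tac1 and Sst.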

How the data were processed

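Each library was made by the study with the VAHTS Universal V10 kit from total RNA. Per the submitters' processing notes, reads were handled with HISAT2, HTSeq and R 3.2.0 on mm10; the annotation and strand setting are not given in the sources used here. The authors deposited FPKM values with no further scaling stated. Whole fragments were recovered from the steps of these values for 100% of 21397 genes, within 0.002 fragments, and 99.7% of each library total lay on listed genes. Limits for counts of 0 cover counting error only, and the 95% intervals of fold changes come from the limma fit.

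The samples were grouped by title and treatment. The main test was limma 3.58.1 in R 4.3.3 (limma-trend, pseudocount 1, mean FPKM at least 1, Benjamini-Hochberg adjustment over all 10551 genes, threshold 0.05). Permutation tests of single values were exact and two-sided. No test of a list was run. All 10 genes were named, and of each list the called genes, up to 3 per direction by size of change, and any gene of a count of 5 or fewer, while cell type marker lists were given mainly by counts and sums. Neurog3, Chgb, Scg3, Scgn, Tph1, Isl1, Hhex, Pcsk2, Mboat4, Ucn3, Iapp, Ptprc, the stomach markers and Glp1r were named after their values were seen. The genes and lists were chosen with earlier results of these data known. List genes that did not match the table were not analysed here. Alternatives changed the scaling, unit, filter, pseudocount, test, replicates, fold threshold, the genes or unit of the shares and the reference of the ratios. Promoters came from RefSeq (GRCm38.p6). Tables and plots were made in Python 3.11.15 (matplotlib 3.10.9, scipy 1.17.1, pandas 2.3.3, numpy 2.4.6).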

Additional observations from a re-analysis of the deposited data

How the results depend on the processing

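Against 8 genes higher on the deposited scale, 7 to 8 were higher over the alternatives, with Sct the gene lost. Lower genes numbered 2 under TMM scaling, Gip (-0.11, limma adjusted p = 0.029) and Chga (-0.11, limma adjusted p = 0.04), and under upper-quartile scaling both had a log2 fold change of -0.06 (limma adjusted p = 0.23). Over the alternatives their limma adjusted p ranged from 0.029 to 0.65 and from 0.04 to 0.73. The share of calls over all genes that were higher was 66.3% on the deposited scale, 53.9% under upper-quartile scaling and 47.5% under TMM, which moved the median of all genes from 0.134 to 0.0364 and -0.0107. For Sct the log2 fold change was 0.25 under upper-quartile scaling (limma adjusted p = 0.12), 0.20 under TMM (0.21), 0.34 with every gene above 0 (0.12), 0.39 with every gene and a pseudocount of 0.1 (0.10) and 0.39 by limma-voom on the fragments (0.083), and 0.20 to 0.42 with 1 library left out; the range of its limma adjusted p was 0.0057 to 0.21. Genes higher at a fold of 2 numbered 1 on the deposited scale and 1 to 2 with 1 library left out. They numbered 2 on the TPM scale, with a pseudocount of 0.1 (with or without the filter) or 0.5 and by limma-voom. At a fold threshold of 1.5 on the deposited scale, 5 were higher. Of all genes tested, 3.39% were higher at a fold of 2 on the deposited scale. That share was not taken at 1.5 or under the alternatives. The MMK-1 minus control difference in the log2 ratio of Gip to Chga, 0.004 in the main analysis, was -0.11 against the mean of Chga and Chgb, and -0.023 to 0.031 with 1 library left out, negative without control replicate 1, control replicate 2 or MMK-1 replicate 2 (-0.0036, -0.014 and -0.023). The cause of these changes was not tested. Same-numbered libraries did not deviate together (r = 0.0253, -0.04 and 0.0279, other pairs -0.0558 to 0.0627), and with the replicate number as a block 8 genes were higher and the limma adjusted p of Sct was 0.0057. Depth limits mainly Nts and Sct in controls.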
